A study of Homo sapiens with 18 samples.

Results

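The genes described here build and run the lysosome: lysosomal membrane proteins, luminal enzymes, autophagy genes, the transcription factors TFEB and TFE3, and the subunits of the vacuolar proton pump, the V-ATPase. They were chosen by name, from a list of 33 genes together with every symbol that starts with ATP6V0 or ATP6V1 and goes on with a subunit letter and at most a number. Of the 33 listed names, 29 had a row in the count table and the other 4 were not analysed here. With 16 V-ATPase genes, 45 of the 20705 genes in the table were described. By role they were 5 membrane proteins, 7 proteases or peptidases, 6 glycosidases, 4 sulfatases and luminal helper proteins, 5 autophagy genes, 2 transcription factors, 6 subunits of the membrane part of the pump (V0) and 10 of its cytosolic part (V1).

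The lysosome is the acidic compartment in which cells break down protein, sugar chains and lipids. The V-ATPase moves protons across its membrane, with the V1 part splitting ATP and the V0 part forming the proton path, and autophagy delivers the cell's own material to it inside autophagosomes. TFEB and TFE3 are related transcription factors that bind a short palindrome in the promoters of many lysosomal genes and enter the nucleus when the kinase mTORC1 is inactive, so that their activity is set largely by localisation rather than by the amount of their mRNA.

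The cells were 2 melanoma lines from a repository, each labelled as wild type for genotype and each a single line. CHL1 has no BRAF or NRAS mutation and carries mutant p53, and it was grown in DMEM, while A375 carries mutant BRAF and wild-type p53 and was grown in RPMI-1640. Cells received the solvent DMSO (control), 1 µM of palbociclib, which inhibits the cell cycle kinases CDK4 and CDK6 (CDK4/6i), for 72 hours or 6 days, or 500 nM of GSK3326595, which inhibits the arginine methyltransferase PRMT5 (PRMT5i), for 72 hours. A375 had a control at 72 hours and another at 6 days. CHL1 had a control at 72 hours, which served all 3 of its treated groups, so 6 days of CDK4/6i in CHL1 differed from its control in time as well as in drug. Each of the 9 groups held 2 libraries of polyadenylated RNA, which gave 18 libraries in all. The labels do not say that the 2 came from separate cultures, so the p-values measure only the spread between these libraries, which may be technical.

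The libraries held 16213475 to 37424081 counts. The melanocyte regulator MITF was present in all groups (means of 69.0 to 177 counts scaled to library size, CPM), while the pigment enzyme TYR was at or below 2.82 CPM in every group. DCT, another pigment enzyme, stood at 83.3 CPM in the CHL1 control and 0 in the A375 control of 72 hours. By sample name, all CHL1 and the 6-day A375 libraries belonged to one series and the 72-hour A375 libraries to another, so at 72 hours the line and the series cannot be told apart. In 4 libraries, genes with GC-rich transcripts were low relative to GC-poor ones. On the log2 scale the 2 libraries of CHL1 under PRMT5i deviated by -2.743 and -2.122 and the 6-day A375 controls by -2.431 and -1.208, against -0.378 to 0.633 in the other 14. The transcripts of the 45 genes had a median GC content of 50.8%, against 47.5% over 13675 expressed genes, and those of the V-ATPase genes a median of 45.1% against 51.6% for the other 29. Many results that rest on those 4 libraries are therefore given as deposited and with a correction for GC content, and the others as deposited only. Of the 45 genes, 27 overlap the exons of another gene, 23 of them on the opposite strand, and because the sources used here do not say whether the libraries kept strand, reads of such pairs may be mixed.

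Promoters were inspected for the palindrome CACGTG, the core of the sequence that TFEB and TFE3 recognise, and for its extension TCACGTGA, in which it is nested, and both read the same on both strands. RefSeq promoters (GRCh38.p14, around the annotated start) were matched for 32 of the 45 genes. CACGTG was in a promoter of 11 of these genes (34.4%), against 8.77% of the 27305 genes with a RefSeq promoter and 11.6% of the 11389 of them that are in the count table. Counted by promoter, it was in 11 of 46 (23.9%), against 7.26% of all 35116. The longer TCACGTGA was in 6 genes (18.8%), against 1.18% of all genes with a promoter and 1.84% of those in the count table, and in 6 of 46 promoters (13%), against 0.98% of all. The 6 genes were LAMP1, CTSA, GAA, MCOLN1, ATP6V0D1 and ATP6V1G1. Windows of 48 bases are printed for the 5 of them in which the window ends before the start, which leaves out CTSA. The capitals mark TCACGTGA. They lie at chr13:113297190-113297237 (plus strand, LAMP1), chr17:80101484-80101531 and chr17:80101529-80101576 (plus strand, GAA, which holds 2 copies), chr19:7522562-7522609 (plus strand, MCOLN1), chr16:67481190-67481237 (minus strand, ATP6V0D1) and chr9:114587690-114587737 (plus strand, ATP6V1G1), and the first capital stands 29, 77, 32, 42, 60 and 59 bases before the start, respectively.
LAMP1: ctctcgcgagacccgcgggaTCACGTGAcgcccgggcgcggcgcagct
GAA, first copy: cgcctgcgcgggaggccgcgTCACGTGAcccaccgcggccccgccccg
GAA, second copy: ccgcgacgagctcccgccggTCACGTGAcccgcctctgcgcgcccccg
MCOLN1: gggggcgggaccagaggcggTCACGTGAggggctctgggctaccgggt
ATP6V0D1: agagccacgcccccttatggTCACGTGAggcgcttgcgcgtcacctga
ATP6V1G1: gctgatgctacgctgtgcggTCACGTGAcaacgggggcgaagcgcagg
A match describes these letters and does not show that a factor binds there.

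In untreated cells, the most abundant transcripts of the group per kilobase of longest transcript (RPKM) were those of PSAP, the precursor of the saposins that help enzymes reach lipids, and CD63, a tetraspanin of late endosomes and lysosomes. PSAP averaged 240 RPKM in CHL1 and 181 in A375, and CD63 averaged 204 and 188. The autophagy receptor SQSTM1 (p62) was the third in A375 at 139 RPKM and the sixth in CHL1 at 59.2. At the low end were CTSD, the aspartic protease cathepsin D, at 0.182 RPKM in CHL1 and 0.22 in A375, and the V-ATPase genes ATP6V1B1 and ATP6V1C2, each below 1 RPKM in CHL1. CTSD overlaps 4 other genes, 2 on its own strand and 2 on the opposite one, and had close to 1 CPM in most libraries. Its values therefore rest on few reads. Whether reads of CTSD were lost to the overlap was not tested, so its low rank describes the counts only.

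The largest difference between the untreated lines was in a pump gene. ATP6V0A4, one of the alternative a subunits of V0 and best known from kidney and inner ear, had 123 and 121 CPM in the CHL1 controls and 8.45 and 6.01 CPM in the A375 controls of 72 hours. Both CHL1 libraries were far above the A375 libraries, a log2 difference of 4.07 ± 0.24 (SE; edgeR quasi-likelihood test, adjusted p = 4.92e-11). NEU1, the sialidase, was higher in CHL1 by 2.00 ± 0.24 (edgeR, adjusted p = 7.33e-07). LAMP2, a heavily glycosylated protein of the lysosomal membrane, was higher in CHL1 by 1.97 ± 0.22 (edgeR, adjusted p = 2.84e-07). TFE3 went the other way, with 25.4 and 22.3 CPM in CHL1 and 76.3 and 87.1 CPM in A375, a log2 difference of -1.78 ± 0.23 (edgeR, adjusted p = 2.23e-06). The 2 lines held opposite ranks for its relative TFEB, with 13.9 and 14.9 CPM in CHL1 and 3.76 and 3.91 CPM in A375, a difference of 1.90 ± 0.26 (edgeR, adjusted p = 4.15e-06). The cholesterol carrier NPC2 and SQSTM1 were the other large differences in favour of A375, with -1.30 ± 0.19 and -1.23 ± 0.29. The 6-day A375 controls share the CHL1 series but differ in time and in GC deviation. They had 114 and 256 CPM of SQSTM1, against 174 and 162 CPM in CHL1, and 27.1 and 48.1 CPM of TFE3. With those controls in place of the 72-hour ones, 5 of the 6 differences other than TFEB kept direction and side of the threshold. The other 1 kept direction alone, and with the GC correction all 6 kept both.

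In all, 19 of the 45 genes were higher in untreated CHL1 and 7 higher in untreated A375. Together their share was near that over all genes (58.9%), where 29.3% were higher in CHL1 and 29.6% in A375. The median difference was 0.38 against -0.02 over all genes. Of the 16 V-ATPase genes, 10 were higher in CHL1 and 2 in A375, namely ATP6V1A, the catalytic subunit, at -0.84 ± 0.19, and ATP6V1E2 at -0.58 ± 0.21. Of the 6 V0 genes 5 were higher in CHL1, and ATP6V0D1, whose difference was -0.43 ± 0.23, did not pass the test.

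**Figure D1:**
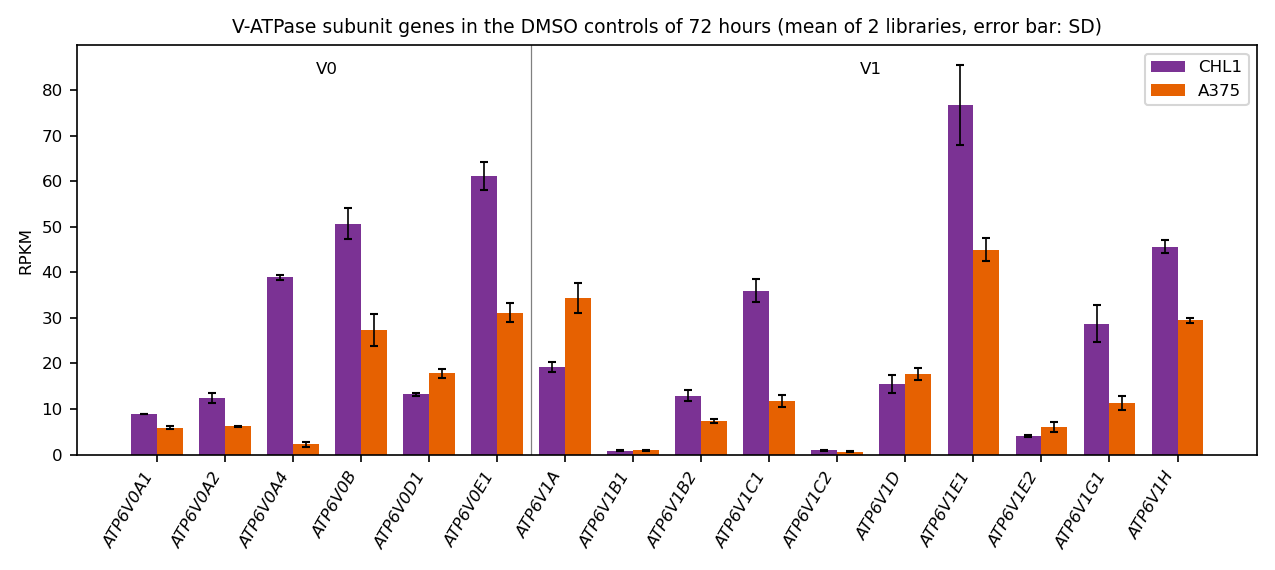
Level of the V-ATPase subunit genes in the 72-hour DMSO controls, in RPKM. Bars are means of 2 libraries for CHL1 (purple) and A375 (orange) and error bars are SDs, and the line separates V0 from V1 genes. ATP6V0A4 stands at 38.9 RPKM in CHL1 and 2.3 in A375, while ATP6V1A stands higher in A375.

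A set of lysosomal genes was higher in CHL1 after 72 hours of CDK4/6i. The 7 genes called higher were CTSF (cathepsin F), GAA (the acid alpha-glucosidase that degrades glycogen), NPC2, PSAP, MCOLN1 (the lysosomal calcium channel TRPML1), GABARAPL1 (an ATG8-type protein of the autophagosome) and ATP6V1G1, a subunit of the stalk of V1. None of the 45 was called lower in this fit. The share called was 7 of 45 (15.6%), against 4.98% of all genes (2.27% higher and 2.72% lower), and the median log2 fold change was 0.35, against 0.00 over all genes.

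GAA had 66.8 and 68.8 CPM in the CHL1 controls and 143 and 132 CPM after 72 hours, a log2 change of 1.02 ± 0.21 (edgeR, adjusted p = 0.019). Both treated libraries lay above both controls. CTSF had 20.9 and 21.4 CPM in the controls and 41.1 and 43.8 CPM after 72 hours, which is a change of 1.00 ± 0.20 (edgeR, adjusted p = 0.0169), again without overlap. The remaining calls were smaller, from 0.70 ± 0.16 for ATP6V1G1 to 0.79 ± 0.20 for MCOLN1. Of the 16 V-ATPase genes, ATP6V1G1 was the one called, and their median change was 0.13. LAMP1, the companion of LAMP2 in the lysosomal membrane, had 240 and 206 CPM in the controls and 297 and 259 CPM after treatment, a change of 0.32 ± 0.19 that did not pass the test (edgeR, adjusted p = 0.385). GLB1, the beta-galactosidase whose activity is used as a stain for senescent cells, had 71.4 and 70.4 CPM before and 83.8 and 90.7 CPM after, a change of 0.30 ± 0.15 that did not pass either (edgeR, adjusted p = 0.282). SQSTM1 (174 and 162 CPM in the controls, 200 and 198 CPM treated), MAP1LC3B (50.1 and 52 CPM, then 75.1 and 84.3 CPM) and ULK1 (75.2 and 64.9 CPM, then 109 and 88.3 CPM) were above both controls in each treated library but did not pass the test. The 7 calls did not outlast the loss of a library: with any 1 of the 4 CHL1 libraries of the comparison left out the count was 0, while with the GC correction 14 genes were called higher, against a background of 13.7% (6.81% higher and 6.93% lower), and all 7 were among them. DESeq2 called 12 higher, where it called 711 of all genes higher and 797 lower. A fit of the 4 compared libraries alone called 25, of which 23 were higher and 2 lower, and one with a replicate block called 3. For these fits no share of all genes is given here.

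After 6 days of CDK4/6i in CHL1, 19 of the 45 genes were higher and 1 lower, against 16.6% of all genes called (8.83% higher and 7.80% lower), and the median change was 0.46 against 0.03. Of the 7 proteases 6 were higher, among them CTSA (which also protects NEU1 and GLB1), CTSB, CTSZ and TPP1, a tripeptidyl peptidase. CTSL, cathepsin L, was the protease not called, at 0.35 ± 0.22. Of the 4 sulfatases and luminal helpers, 3 were higher, NPC2 at 1.39 ± 0.19, ARSA (arylsulfatase A) at 1.09 ± 0.24 and PSAP at 0.91 ± 0.19. Of the glycosidases, GAA and NEU1 were higher (2 of 6).

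CTSF reached 63.1 and 61.7 CPM from 20.9 and 21.4 CPM, a log2 change of 1.57 ± 0.20 (edgeR, adjusted p = 0.000874). Its treated libraries were well apart from the controls. CTSD had 0.863 and 0.745 CPM in the controls and 1.45 and 3.34 CPM after 6 days, a change of 1.56 ± 0.43 (edgeR, adjusted p = 0.03), and its treated libraries differed more from each other than the controls did. LAMP2 rose from 446 and 384 CPM to 768 and 797 CPM, by 0.93 ± 0.15, whereas LAMP1, at 271 and 334 CPM, gave 0.45 ± 0.19 and did not pass (edgeR, adjusted p = 0.121). GLB1 stood at 93.8 and 90.5 CPM, above both controls, with 0.39 ± 0.15 (edgeR, adjusted p = 0.0869). At 6 days SQSTM1 had 183 and 196 CPM (0.19 ± 0.21), MAP1LC3B 87.4 and 67.4 CPM (0.62 ± 0.20) and ULK1 105 and 119 CPM (0.68 ± 0.25), and none of the 3 passed.

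The pump genes did not move as one in CHL1. ATP6V0A4 was the single gene of the 45 called lower. It fell from 123 and 121 CPM to 68.9 and 46.4 CPM, by 1.06 on the log2 scale (SE 0.20; edgeR, adjusted p = 0.00478). Its overlapping neighbour TMEM213 stayed at or below 1.60 CPM in these libraries. ATP6V0A1, another a subunit, rose by 0.46 ± 0.15, ATP6V1A by 0.83 ± 0.15 and ATP6V1G1 by 1.01 ± 0.16, and the other 12 V-ATPase genes did not pass the test. The summed CPM of the 16 V-ATPase genes was 1170 to 1280 in the controls and 1450 in both 6-day libraries, while that of the other 29 genes went from 2960 to 3180 in the controls to 4670 to 5170. With the GC correction 28 genes were higher and 1 lower, against 29.8% of all genes called, and all 20 calls as deposited were among them. Leaving out control replicate 2 cut the count to 4, leaving out control replicate 1 to 9 and leaving out 6-day replicate 2 to 13.

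In A375 at 72 hours of CDK4/6i, 13 of the 45 genes were higher and 1 lower, against 13.3% of all genes called (6.22% higher and 7.11% lower), and the median change was 0.58 against 0.00. The largest rise was that of NEU1, from 13.6 and 17.5 CPM to 47.8 and 43.3 CPM, by 1.49 ± 0.24 (edgeR, adjusted p = 0.000784). ATP6V0A4, which had not passed the test in CHL1 at this time, rose from 8.45 and 6.01 CPM to 22.0 and 18 CPM, by 1.41 ± 0.24 (edgeR, adjusted p = 0.00121). In both genes the treated and control libraries were far apart. The other calls were CTSA, CTSF, GAA, FUCA1 (alpha-fucosidase), MANBA (beta-mannosidase), PSAP, ARSA, MAP1LC3B and GABARAPL1, both ATG8-type proteins, ATP6V0E1 and ATP6V1A.

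GUSB, beta-glucuronidase, was the gene that fell, from 56.4 and 57.6 CPM to 36.1 and 36.5 CPM, by 0.71 on the log2 scale (SE 0.20; edgeR, adjusted p = 0.0246). In CHL1 it was also below both controls after 72 hours (63.0 and 56.7 against 49.2 and 43.6 CPM), but that change of -0.37 ± 0.18 did not pass the test. MAP1LC3B rose from 36.5 and 42.1 CPM to 85 and 77.6 CPM, by 0.99 ± 0.19 (edgeR, adjusted p = 0.00331). SQSTM1 had 383 and 406 CPM before and 745 and 716 CPM after, a change of 0.83 ± 0.30 that did not pass (edgeR, adjusted p = 0.0756) although the libraries of each group were close together. MGAT4B, a gene on the opposite strand whose exons overlap those of SQSTM1, went from 191 and 197 CPM to 302 and 261 CPM. LAMP1 had 154 and 197 CPM in the controls and 272 and 287 CPM after treatment, 0.61 ± 0.21 (edgeR, adjusted p = 0.0688), and none of the 5 membrane proteins passed. ULK1, the kinase that starts autophagosome formation, had 45 and 47.1 CPM before and 67.0 and 66.6 CPM after, 0.48 ± 0.17 (edgeR, adjusted p = 0.0797). GLB1 had 82.9 and 84.3 CPM before and 110 and 106 CPM after, 0.31 ± 0.16 (edgeR, adjusted p = 0.234).

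The fit that gave these values pools its estimate of the spread with the other A375 libraries, among them the 6-day controls with their GC deviation. Without the 6-day A375 libraries in the fit, 34 of the 45 genes were called, 31 higher and 3 lower. What part the GC deviation had in this was not tested. Fitted with its own 4 libraries alone, the comparison called 35 of the 45 genes. For neither of these 2 fits is a share of all genes given here. With the GC correction the comparison called 27 higher and 2 lower, GUSB and ATP6V1E2, against 30.2% of all genes. Leaving out any 1 of the 4 libraries gave 6 to 9 calls.

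After 6 days of CDK4/6i in A375, against the 6-day control, 29 of the 45 genes were higher and 1 lower. The background was 43.1% of all genes called (21.8% of all genes tested were higher and 21.3% lower), and the median change was 0.92 against 0.10 over all genes. Called higher were 6 of 7 proteases, 4 of 5 membrane proteins, 3 of 6 glycosidases, 3 of 4 sulfatases and helpers, 4 of 5 autophagy genes, 5 of 6 V0 and 3 of 10 V1 genes. ATP6V0A4 rose from 5.92 and 5.10 CPM to 28.8 and 21.7 CPM, by 2.19 ± 0.24 (edgeR, adjusted p = 1.31e-05), and its value with the GC correction was 1.96. ATP6V1B1, the B subunit found in kidney and inner ear, rose from 0.751 and 1.10 CPM to 3.69 and 4.36 CPM, by 2.11 ± 0.34 (edgeR, adjusted p = 0.000241), with 1.55 corrected. Both treated libraries were above both controls in each case, and the overlapping gene VAX2 went from 11.7 and 11.0 CPM to 13.1 and 14.3 CPM.

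SQSTM1 rose from 114 and 256 CPM to 511 and 708 CPM, by 1.70 ± 0.30 (edgeR, adjusted p = 0.00046). Its 2 controls differed from each other by a larger ratio than the treated libraries, with the lower value in the replicate whose GC deviation was larger. The overlapping MGAT4B went from 73.0 and 103 CPM to 178 and 155 CPM, and reads of the 2 genes may be mixed. ULK1 rose from 27.4 and 32.4 CPM to 67.1 and 60 CPM, by 1.08 ± 0.17, and LAMP1 from 91.0 and 128 CPM to 247 and 216 CPM, by 1.08 ± 0.21. UVRAG, a partner of beclin in autophagosome and endosome maturation, fell from 268 and 166 CPM to 134 and 143 CPM, by 0.64 on the log2 scale (SE 0.20; edgeR, adjusted p = 0.0171), and one control was far above the other. MAP1LC3B rose from 63.8 and 44.2 CPM to 107 and 96.8 CPM, by 0.92 ± 0.19. GLB1 had 94.8 and 80.1 CPM in the controls and 112 and 104 CPM after treatment, with 0.30 ± 0.16 (edgeR, adjusted p = 0.149).

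The direction of some of these calls rested on which control was used. Corrected for GC content, 31 genes were higher and 2 lower, against 43.8% of all genes, and 25 of the 29 calls higher were retained. The corrected median change was 0.61, against 0.03 over all genes, and UVRAG stood at -0.64 corrected as well. Across the 45 genes, Spearman's correlation of the change with GC content was 0.63 as deposited and 0.06 corrected, as a description of values that share libraries. The 6-day libraries were also compared with the 72-hour A375 controls, which show less GC deviation but differ in time and series. That comparison gave 25 calls, 24 higher and 1 lower, a count for which no share of all genes is given here. In it CTSB stood at -0.26, NPC1 (the cholesterol transporter) at -0.34, TFE3 at -0.20 and FUCA1 at -0.04, where the 6-day control gave 1.2, 0.68, 0.95 and 0.53, and UVRAG stood at 0.46, where the 6-day control gave -0.64. With the 72-hour controls and the GC correction together, TFE3 alone of these genes kept the direction it had with the 6-day control.

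**Figure D2:**
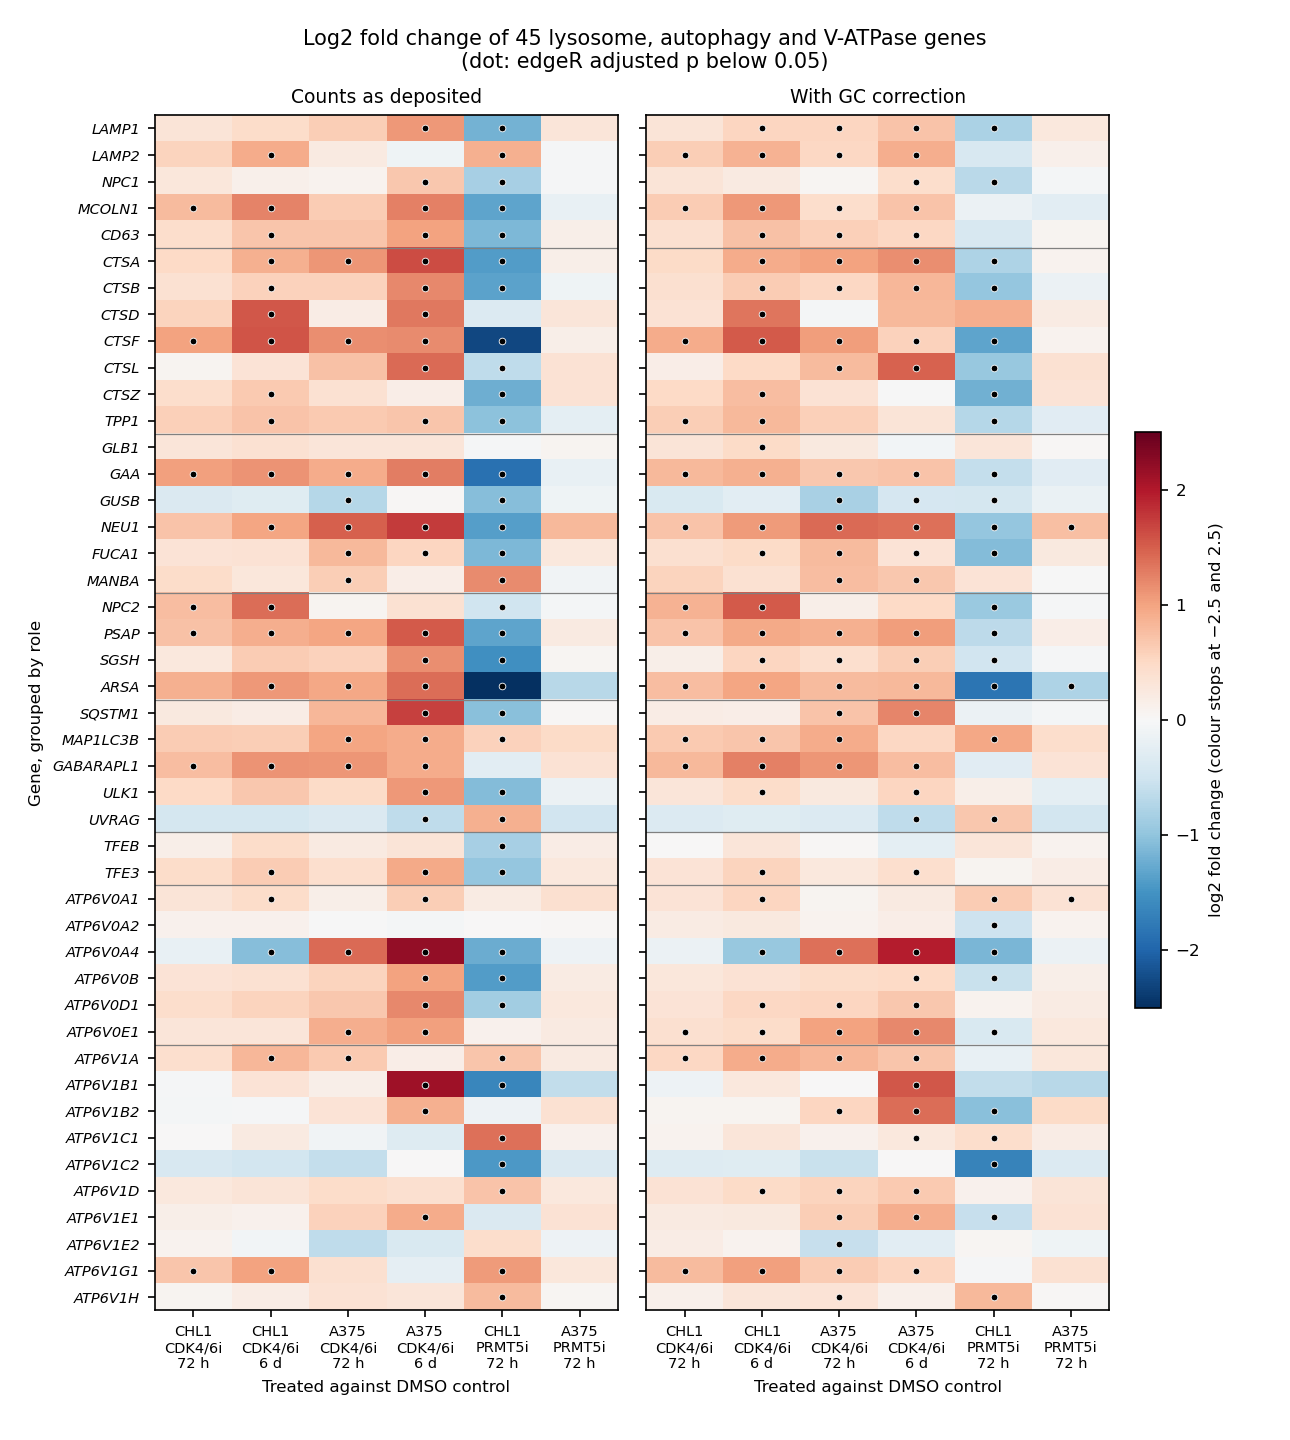
Log2 fold change of the 45 genes (rows, grouped by role) in 6 treated-against-control comparisons (columns), as deposited on the left and with the GC correction on the right. Red is higher and blue lower than the control, the colour stops at 2.5, and a dot marks an edgeR adjusted p below 0.05. CDK4/6i columns are mostly red, and the CHL1 PRMT5i column is mostly blue with 27 genes lower as deposited and 23 with the correction.

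Across the 4 comparisons of CDK4/6i with a control, 4 of the 45 genes were called higher in each (8.89%, against 0.57% of all genes), namely CTSF, GAA, PSAP and GABARAPL1. The CHL1 comparisons share their controls. With the GC correction there were 11 such genes (24.4%, against 2.39% of the 12095 genes with corrected values in all 4), the 4 together with LAMP2, NEU1, MCOLN1, ARSA, ATP6V0E1, ATP6V1A and ATP6V1G1. At least 1 call higher was found for 35 genes (77.8%, against 28.5% of all genes), and with the correction for 39 (86.7%, against 34.0%). In at least 1 comparison 3 genes were called lower (6.67%, against 26.7% of all genes), namely GUSB, UVRAG and ATP6V0A4. No call was made for 8 genes (17.8%, against 46.9% of all genes), which were GLB1, TFEB, ATP6V0A2, ATP6V1C1, ATP6V1C2, ATP6V1D, ATP6V1E2 and ATP6V1H. With the correction 4 genes were lower in at least 1 comparison (8.89%, against 33.5%), ATP6V1E2 among them. No call was then made for 3 (6.67%, against 35.7%), namely TFEB, ATP6V0A2 and ATP6V1C2. GLB1, ATP6V1C1 and ATP6V1H were called higher in 1 corrected comparison each, and ATP6V1D in 3.

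PSAP, the most abundant of them, had 664 and 653 CPM in the CHL1 controls, 1110 and 1090 CPM at 72 hours and 1190 and 1260 CPM at 6 days. In A375 it had 483 and 513 CPM in the 72-hour controls and 1040 and 1010 CPM in the treated libraries, then 260 and 285 CPM in the 6-day controls and 875 and 704 CPM in the treated ones. GABARAPL1 had 24.6 and 25.6 CPM in the CHL1 controls, 46.1 and 39.4 CPM at 72 hours and 47.9 and 61.2 CPM at 6 days, and in A375 19.0 and 18 CPM rose to 41.0 and 41.9 CPM, and 20.6 and 18 CPM to 36.4 and 37 CPM. For both genes no treated library overlapped the controls it was compared with.

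**Figure D3:**
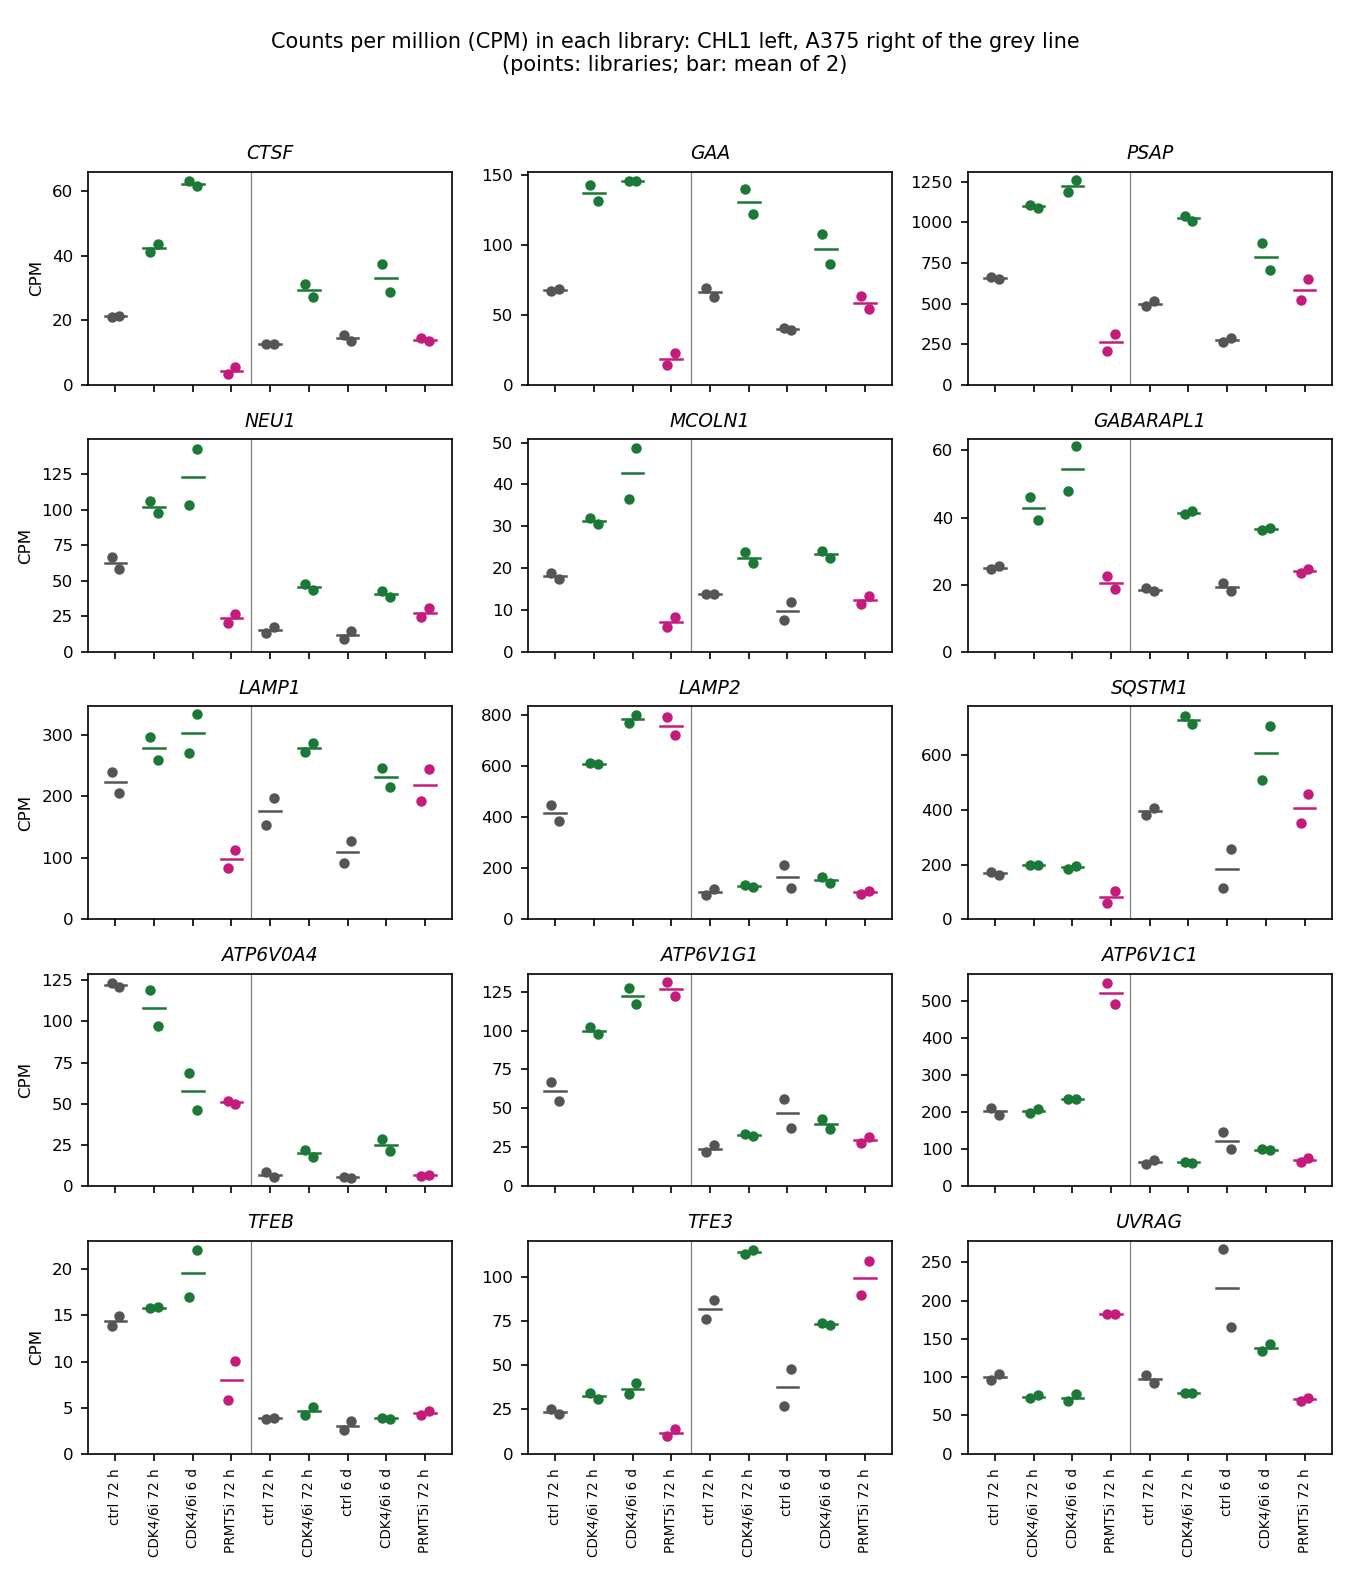
CPM of 15 genes in each of the 18 libraries (points) with the mean of 2 (bars), CHL1 to the left and A375 to the right of the grey line, with controls in grey, CDK4/6i in green and PRMT5i in magenta. CTSF, GAA, PSAP and GABARAPL1 are above their controls in all CDK4/6i libraries, and ATP6V0A4 falls in CHL1 and rises in A375.

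TFEB did not pass the test in any CDK4/6i comparison, with log2 fold changes from 0.14 to 0.46. It had 15.8 and 15.9 CPM at 72 hours and 17.0 and 22.1 CPM at 6 days in CHL1, 4.23 and 5.06 CPM at 72 hours in A375, and 3.85 and 3.82 CPM at 6 days against 2.58 and 3.51 CPM in the controls. TFE3 was called at 6 days in both lines. It went from 25.4 and 22.3 CPM to 33.8 and 39.9 CPM in CHL1 (0.64 ± 0.19; edgeR, adjusted p = 0.0425) and from 27.1 and 48.1 CPM to 73.8 and 73.0 CPM in A375 (0.95 ± 0.23; edgeR, adjusted p = 0.00404). The A375 rise stood beside 76.3 and 87.1 CPM in the 72-hour controls of that line, which belong to another series. As deposited, the 6-day treated level was thus no higher than that of the earlier controls. With the GC correction the change against those controls did not turn negative. Among the 32 genes with a matched promoter, those with TCACGTGA were called higher in 3 of 6 and 4 of 6 cases in CHL1 at 72 hours and 6 days and in 2 of 6 and 5 of 6 in A375. Those without it were called higher in 3, 10, 6 and 18 of 26. With the GC correction the counts were 3, 6, 6 and 6 of 6 against 6, 15, 11 and 15 of 26, given as a description with no test.

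The same comparisons were read for 134 other genes of the pathway. Of 34 other lysosomal hydrolases, 4 were higher at 72 hours and 15 at 6 days in CHL1, and 12 at 72 hours and 21 at 6 days in A375, with none lower but 1 in the last. The 49 other autophagy genes were split, with 5 higher and 3 lower at 6 days in CHL1 and 18 higher and 12 lower at 6 days in A375. SMPD1, acid sphingomyelinase, was the largest rise among these other genes in 3 of the 4 comparisons. It went from 21.0 and 19.3 CPM to 44.9 and 41.4 CPM in CHL1 at 72 hours (1.10 ± 0.23) and from 16.2 and 17.4 CPM to 46.3 and 43.8 CPM in A375 (1.37 ± 0.21), and at 6 days in A375 from 7.12 and 10.6 CPM to 30.0 and 29.9 CPM (1.75 ± 0.22). The last of these changes was 1.19 with the GC correction. CTSS, cathepsin S, was the largest rise in CHL1 at 6 days (1.58 ± 0.46), at no more than 1.24 CPM. ATG10, an enzyme of the ATG12 conjugation system, was the largest fall in 3 of the 4, by 0.75 in CHL1 at 72 hours, by 1.16 in A375 at 72 hours and by 1.51 at 6 days (SE 0.17, 0.24 and 0.24). ATG10 stood at -1.26 at 6 days in A375 with the GC correction. Its levels in A375 went from 48.7 and 39.4 CPM to 20.3 and 20.7 CPM at 72 hours and from 93.5 and 62.0 CPM to 24.0 and 30.5 CPM at 6 days. ATG7, the enzyme that activates ATG8 and ATG12, was the largest fall in CHL1 at 6 days, by 0.96 (SE 0.16), from 85.1 and 95.9 CPM to 41.0 and 51.4 CPM. Over all 134 other pathway genes, 7, 31, 28 and 60 were higher and 2, 5, 6 and 20 lower in CHL1 at 72 hours and 6 days and in A375 at 72 hours and 6 days, respectively. The shares called were 6.72%, 26.9%, 25.4% and 59.7%, against 4.98%, 16.6%, 13.3% and 43.1% of all genes. For the hydrolases they were 11.8%, 44.1%, 35.3% and 64.7%, and for the autophagy genes, at 4.08%, 16.3%, 24.5% and 61.2%, both shares in CHL1 were no higher than over all genes.

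The 2 times of CDK4/6i were also compared directly. No gene of the 45 was called between 6 days and 72 hours of CDK4/6i in CHL1, where 0.0145% of all genes were called. At an unadjusted p below 0.05 there were 7, and DESeq2 called 1, ATP6V0A4, at -0.92 (adjusted p = 0.0105). In A375 no gene was called for a difference in response between the times, where 1.08% of all genes were called. At an unadjusted p below 0.05 there were 8, and DESeq2 called 1, ATP6V1B1, at 1.87 (adjusted p = 0.0486). That count rested on 1 library, for without replicate 2 of the A375 6-day controls 23 genes were called.

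The response to CDK4/6i differed between the lines for 1 gene at 72 hours, against 0.642% of all genes, and this was ATP6V0A4. The difference, CHL1 minus A375, was -1.64 ± 0.30 (edgeR, adjusted p = 0.016), and -1.52 with the GC correction. This call was lost, and the count was 0, without any 1 of the 4 CHL1 libraries, without replicate 2 of the A375 72-hour controls or without replicate 1 of the treated A375 libraries. At 6 days 10 genes differed, 3 with the larger response in CHL1 and 7 in A375, against 21.9% of all genes. ATP6V0A4 led these at -3.27 ± 0.31 (edgeR, adjusted p = 6.5e-06), having fallen in CHL1 and risen in A375, and the correction left it at -2.90. ATP6V1B1 (-1.78 ± 0.56) and SQSTM1 (-1.55 ± 0.41) followed, and ATP6V1G1 (1.22 ± 0.26), LAMP2 (1.02 ± 0.29) and NPC2 (1.00 ± 0.27) had the larger response in CHL1. With the correction LAMP2 stood at 0.04 (edgeR, adjusted p = 0.926) and ATP6V1B1 at -1.25 (edgeR, adjusted p = 0.0604), and neither passed the test. The 6-day comparison sets a 72-hour control in CHL1 against a 6-day control in A375, and its count ranged from 5 to 23 when single libraries were left out, with 23 again without replicate 2 of the A375 6-day controls. The count was 5 without replicate 2 of the treated A375 libraries, and 6 without either CHL1 control, without replicate 1 of the treated CHL1 libraries or without replicate 1 of the A375 6-day controls.

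**Figure D4:**
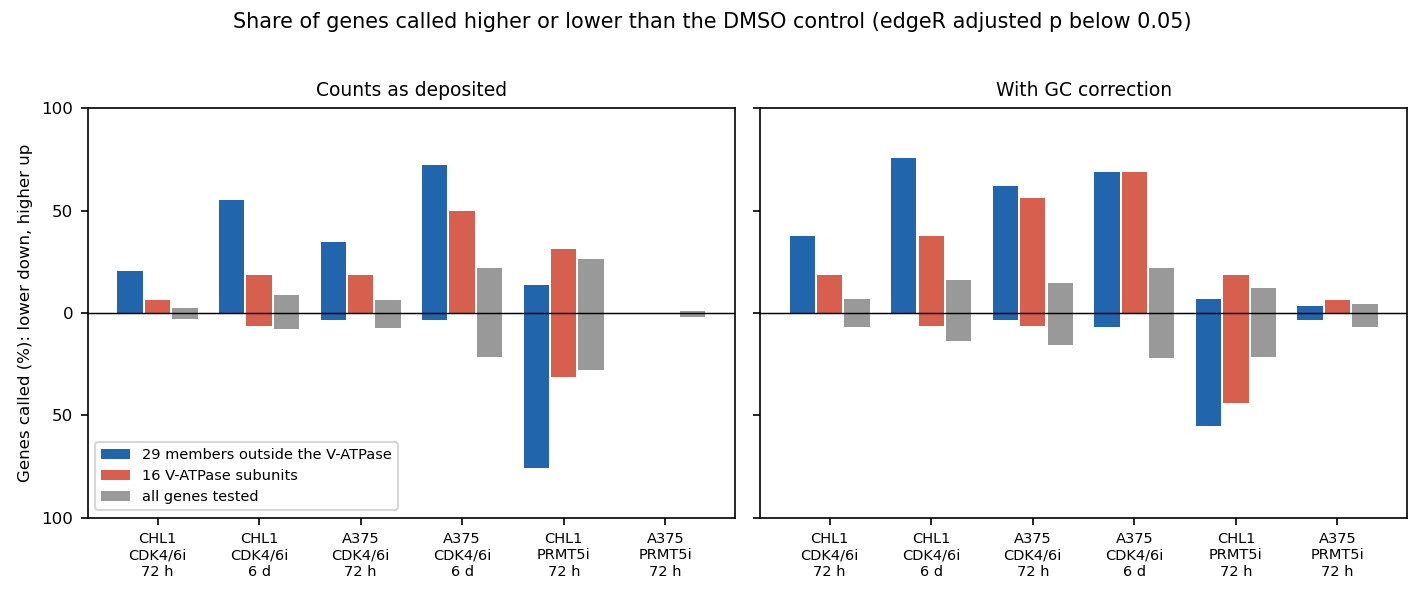
Percentage of genes called higher (up) and lower (down) than the control at an edgeR adjusted p below 0.05, for the 29 genes outside the V-ATPase (blue), the 16 V-ATPase genes (red) and all genes tested (grey), as deposited on the left and with the GC correction on the right. In A375 at 6 days 72.4% of the 29 and 50% of the 16 were higher, and the A375 PRMT5i bars hold no gene of either set as deposited.

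PRMT5i in CHL1 went with low levels of most lysosomal enzyme genes. As deposited, 27 of the 45 genes were lower and 9 higher, where 54.0% of all genes were called, and the median change was -0.87 against 0.00. With the GC correction 23 were lower and 5 higher, where 33.5% of all genes were called, 12.3% higher and 21.3% lower, and the median was -0.43 against -0.11. Of the 27 lower calls 19 were among the 23, and of the 9 higher calls 4 were among the 5. The correction itself moved the split of all genes from 5461 higher and 5715 lower to 1577 higher and 2739 lower.

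ARSA fell most, from 25 and 26.9 CPM to 2.25 and 4.77 CPM, by 2.87 on the log2 scale (SE 0.27; edgeR, adjusted p = 8.22e-05), and its corrected value was -1.82 (edgeR, adjusted p = 0.000286). CTSF followed, from 20.9 and 21.4 CPM to 3.29 and 5.31 CPM, with -2.28 ± 0.22 as deposited and -1.32 corrected. The treated libraries of both genes were far below the controls. All 4 sulfatases and luminal helpers and 6 of the 7 proteases were lower both as deposited and with the correction. CTSD was the protease not called, at -0.34 ± 0.49. PSAP, for instance, had 210 and 312 CPM against 664 and 653 CPM in the controls, and its corrected value was -0.65.

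The genes that rose as deposited were LAMP2, MAP1LC3B, UVRAG, MANBA and 5 V1 genes. ATP6V1C1, a regulatory subunit of the pump, went from 213 and 193 CPM to 550 and 493 CPM, by 1.38 ± 0.15 (edgeR, adjusted p = 8.32e-05), and kept its call with the correction at 0.44 (edgeR, adjusted p = 0.017). MANBA went from 73.2 and 83.4 CPM to 166 and 187 CPM, by 1.19 ± 0.17, but stood at 0.34 with the correction and no longer passed (edgeR, adjusted p = 0.178). UVRAG had 183 CPM in both treated libraries against 96.6 and 104 CPM, 0.88 ± 0.15 as deposited and 0.68 corrected, and MAP1LC3B had 87.9 and 62.2 CPM against 50.1 and 52.0 CPM, 0.57 ± 0.20 as deposited and 0.96 corrected. ATP6V1H, another V1 gene, was 0.80 ± 0.14 as deposited and 0.81 corrected.

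For 7 genes the sign itself turned with the correction. LAMP2, at 791 and 719 CPM against 446 and 384 CPM, was 0.88 ± 0.15 as deposited and -0.41 corrected, where it did not pass the test. ATP6V1A went from 0.69 to -0.18 and ATP6V1G1 from 1.07 to -0.02. ULK1, with 22.6 and 42.6 CPM against 75.2 and 64.9 CPM, went from -1.08 to 0.15, TFEB (5.87 and 10.1 CPM) from -0.83 to 0.30, TFE3 (9.96 and 14.0 CPM) from -0.97 to 0.06 and ATP6V0D1 from -0.87 to 0.09. LAMP2, ATP6V1A and ATP6V1G1 have GC-poor transcripts and the other 4 GC-rich ones. Across the 45 genes, Spearman's correlation of the change with GC content was -0.68 as deposited and 0.02 corrected, and over the expressed genes it was -0.82 and -0.07, as a description of values that share libraries. LAMP1 (82.6 and 112 CPM) and SQSTM1 (60 and 102 CPM) were lower as deposited, by 1.18 and 1.04. With the correction LAMP1 stood at -0.80 and still passed, and SQSTM1 at -0.15 and did not. MGAT4B, which overlaps SQSTM1, had 32.1 and 56.0 CPM against 132 and 127 CPM in the controls. GLB1 had 66.6 and 70.5 CPM and was not called, at -0.03 ± 0.15.

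**Figure D5:**
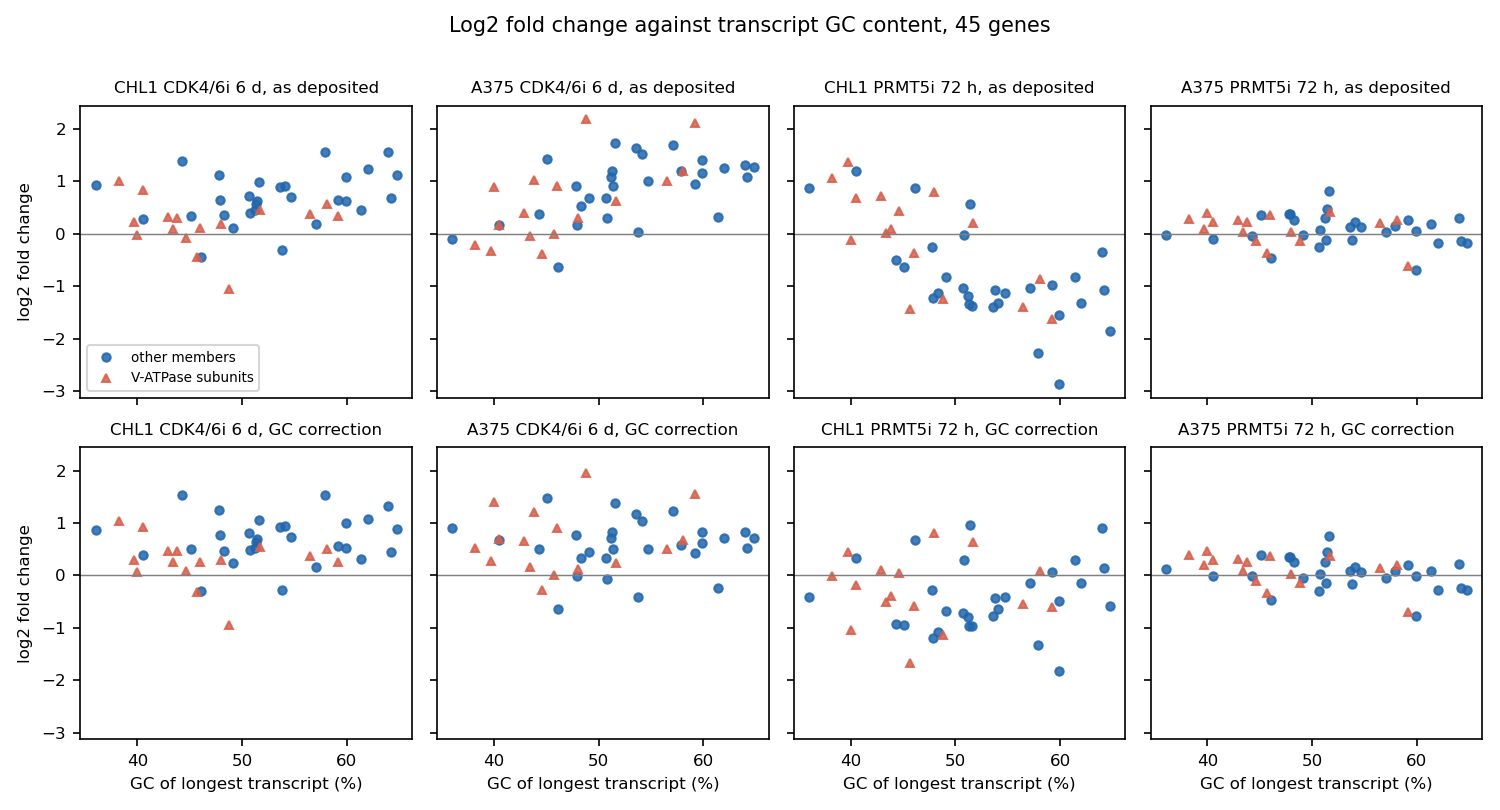
Log2 fold change (vertical axis) against the GC content of the longest transcript in percent (horizontal axis) for the 45 genes in 4 comparisons, as deposited in the upper and with the GC correction in the lower row, with V-ATPase genes as triangles and the others as circles. The fall with GC content in CHL1 PRMT5i and the rise in A375 CDK4/6i at 6 days are absent from the lower row.

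In A375, PRMT5i called none of the 45 genes, where 2.61% of all genes were called (0.874% higher and 1.74% lower), and the median change was 0.14. At an unadjusted p below 0.05 there were 6 genes (4 higher and 2 lower), and DESeq2 called 1, NEU1, at 0.82 (adjusted p = 0.0399). The count of 0 depended on which libraries shared the fit, for the 4 compared libraries alone gave 3 calls, 2 higher and 1 lower, and the A375 libraries with numbered replicates gave 7, 5 higher and 2 lower. A replicate block, which assumes a pairing that the labels do not state, gave 16, 14 higher and 2 lower. The shares of all genes called in these fits are not given here. NEU1 had 13.6 and 17.5 CPM in the controls and 24.5 and 30.6 CPM after treatment, and the groups did not overlap. After correction for GC content NEU1 (0.76) and ATP6V0A1 (0.37) were higher and ARSA (-0.77) lower, where 11.1% of all genes were called (4.35% higher and 6.74% lower). ARSA, with 10.2 and 9.04 CPM before and 6.47 and 5.52 CPM after, was thus below its controls in both lines. LAMP1 had 193 and 244 CPM (0.30 ± 0.21), GLB1 87.8 and 89.5 CPM (0.07 ± 0.16), SQSTM1 351 and 460 CPM (0.03 ± 0.29), MAP1LC3B 49.9 and 61.0 CPM (0.48 ± 0.19) and ULK1 43.0 and 41.2 CPM (-0.14 ± 0.17). TFEB, at 4.17 and 4.61 CPM, gave 0.18 ± 0.28 and TFE3, at 89.5 and 109 CPM, gave 0.27 ± 0.23.

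Of the 134 other pathway genes, 36 were higher and 51 lower under PRMT5i in CHL1, a share of 64.9% against 54.0% of all genes. With the correction 11 were higher and 33 lower of 120, which is 36.7% against 33.5%. ACP2, the lysosomal acid phosphatase, was the largest fall, from 21.9 and 20.4 CPM to 3.32 and 4.41 CPM (-2.43 ± 0.20, and -1.48 corrected), and CTSS the largest rise (1.60 ± 0.45), at no more than 1.04 CPM. In A375 a single one of these genes was called, ATG10, which fell by 1.10 (SE 0.24), from 48.7 and 39.4 CPM to 25.3 and 16.1 CPM. In CHL1 ATG10 stood at 81.6 and 91.6 CPM against 67.4 and 74.5 CPM.

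Set against each other at 72 hours, the 2 inhibitors gave different levels in both lines. In CHL1, 29 genes were lower and 4 higher under PRMT5i than under CDK4/6i, where 57.8% of all genes were called. With the correction 28 were lower and 3 higher, where 47.8% were called, and the median difference was -1.06 as deposited and -0.81 corrected. ARSA differed most, at -3.75 ± 0.28 (edgeR, adjusted p = 1.12e-05) and -2.58 corrected. CTSF (-3.28 ± 0.22) and GAA (-2.88 ± 0.22) followed, with -2.25 and -1.40 corrected. ATP6V1C1 (1.38 ± 0.15) and UVRAG (1.32 ± 0.15) were higher under PRMT5i, while MANBA was 0.74 ± 0.17 as deposited and -0.21 corrected.

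In A375, 12 genes were lower under PRMT5i than under CDK4/6i and none was higher, where 5.45% of all genes were called, 3.09% lower. ARSA (-1.65 ± 0.23), ATP6V0A4 (-1.54 ± 0.24) and GAA (-1.11 ± 0.18) differed most, and their corrected values were -1.56, -1.53 and -0.96. With the correction 20 genes were lower and 2 higher, where 19.5% were called. With 1 of the 4 libraries left out the count was 1 to 3, whichever library it was.

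The response to PRMT5i differed between the lines for 32 of the 45 genes, 26 with the lower value in CHL1, where 40.9% of all genes were called. With the correction 21 differed, 19 of them lower in CHL1, where 26.5% were called. CTSF (-2.46 ± 0.29), NEU1 (-2.23 ± 0.33) and ARSA (-2.21 ± 0.35) had the largest differences in that direction, with -1.41, -1.74 and -1.06 corrected. UVRAG (1.32 ± 0.26), ATP6V1C1 (1.25 ± 0.25) and MANBA (1.25 ± 0.26) had the largest in the other, with 1.15, 0.30 and 0.39 corrected, of which UVRAG alone passed the test. The share of these differences that goes with the GC deviation of the CHL1 PRMT5i libraries or with the separate series of the A375 libraries cannot be told apart from the drug.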

How the data were processed

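Counts per gene for 18 libraries (9 groups of 2) were used as deposited. Per the labels and processing notes, the authors aligned paired reads of poly-A libraries with HISAT2 (2.0.4) to GRCh37 and counted reads per gene with HTSeq (0.11.2); FastQC (0.11.6), Picard (2.17.3), SAMtools (1.18) and edgeR are also listed. The deposited table is named as edgeR-normalised reads, but its values are all whole numbers with unequal totals, so they were taken as raw counts. HTSeq ran at its default settings, per the study's methods, and whether the libraries kept strand is not given in the sources used here.

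Each line was fitted with all its libraries, and line differences with all 18, by edgeR 4.0.16 (quasi-likelihood test, TMM factors, prior count 0.125, with limma 3.58.1) in R 4.3.3. A call is a Benjamini-Hochberg adjusted p below 0.05 over all 20705 genes, and ± is the SE. CPM uses TMM-adjusted library sizes. RPKM divides by the longest GENCODE transcript, from which GC content was also taken. Replicate 1 and 2 of the A375 6-day groups follow accession order. The correction for GC content fitted each library's deviation on GC (loess, span 0.4; genes averaging 1 CPM or more) as an offset. This was chosen after seeing the data, together with its combinations with other settings, the exchange of the A375 controls and the fit of numbered libraries. The other alternatives were a filter (1 CPM in 2 libraries), DESeq2 1.42.0, scaling by median of ratios, only the compared groups, a replicate block and leaving out each library. The fits were tested on simulated data.

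The members, gene lists and alternatives were chosen with earlier results of these data known. Every library's value is given for the 2 largest rises and falls among called members averaging 1 CPM or more in each treated-control comparison, and for TFEB, TFE3, LAMP1, GLB1, SQSTM1, MAP1LC3B and ULK1; for comparisons of times, drugs or lines up to 3 called members in each direction are named, and of the other pathway genes the largest called rise and fall. Further members are named to account for all 45. Counts without molecular identifiers are not independent molecules.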

Additional observations from a re-analysis of the deposited data

Results flagged for a closer look

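A response was singled out here when a test of the difference between the lines (CHL1 minus A375, edgeR with all 18 libraries) passed the threshold. For CDK4/6i at 72 hours this held for 1 of the 45 genes, where 0.642% of all genes passed. It was ATP6V0A4, at -1.64, the a subunit that stood higher in untreated CHL1.

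For CDK4/6i at 6 days it held for 10 of the 45 genes, a share near that of all genes (21.9%). ATP6V0A4 (-3.27), ATP6V1B1 (-1.78) and SQSTM1 (-1.55) had the larger response in A375, and ATP6V1G1 (1.22), LAMP2 (1.02) and NPC2 (1.00) the larger response in CHL1. For these genes the A375 6-day controls, whose GC deviation was -2.431 and -1.208, enter every value, and CHL1 was compared with its 72-hour control. The part of either in these differences was not tested beyond the corrected values of the report.

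For PRMT5i it held for 32 of the 45 genes, where 40.9% of all genes passed. CTSF (-2.46), NEU1 (-2.23) and ARSA (-2.21) had the lower response in CHL1, and UVRAG (1.32), ATP6V1C1 (1.25) and MANBA (1.25) the higher. The CHL1 PRMT5i libraries, with a GC deviation of -2.743 and -2.122, enter each of these.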

How the results depend on the processing

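Every p-value rests on 2 libraries a group, of 16213475 to 37424081 counts. CTSD, ATP6V1B1 and ATP6V1C2 stood at a few CPM or less. Median-of-ratios scaling and the filter on low values left each count of calls within 1.5 times the one reported, and no value of a named gene turned sign under either or under DESeq2.

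DESeq2 called 12 genes in CHL1 at 72 hours of CDK4/6i, 23 in A375 at 72 hours, 1 under A375 PRMT5i and 1 in each comparison of times. With the GC correction the counts were 14, 29 and 3 in the first 3 of these comparisons, 22 for PRMT5i against CDK4/6i in A375 and 21 for the line difference under PRMT5i. Fitted on the compared groups alone they were 25 in CHL1 and 35 in A375 at 72 hours of CDK4/6i and 3 under A375 PRMT5i. The cause of these shifts was not tested, and for the fits of the compared groups alone no share of all genes is given.

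Equal replicate numbers gave correlations of deviations between -0.234 and 0.269 in CHL1 and between 0.104 and 0.353 in A375, with 2 pairs a comparison. All 3 values in A375 were above 0.1, but the labels do not state that equal numbers mark a shared culture or day, and with 2 pairs these values do not settle it, so no pairing was assumed. With a replicate block the counts were 3 in CHL1 and 36 in A375 at 72 hours of CDK4/6i, 16 under A375 PRMT5i (14 higher and 2 lower, where the reported fit called none) and 31 for PRMT5i against CDK4/6i in A375. The block with the GC correction gave 15, 36, 21 and 33. The A375 fits with a block hold numbered libraries only, and these libraries without a block gave 34, 7 and 24 in A375. Elsewhere the block moved no count by over 1.5 times. For the fits with a block and those of numbered libraries no share of all genes is given, so these counts have no background beside them.

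Signs that turned under CHL1 PRMT5i with the GC correction were those of LAMP2 (-0.41, also with the block), ULK1 (0.15, also with the block), TFEB (0.30, and 0.29 with the block), TFE3 (0.06, also with the block), ATP6V0D1 (0.09, also with the block), ATP6V1A (-0.18, also with the block) and ATP6V1G1 (-0.02, also with the block), and for PRMT5i against CDK4/6i that of MANBA (-0.21, and -0.22 with the block). With the 72-hour controls for A375 at 6 days, CTSB stood at -0.26 (-0.24 with the GC correction), NPC1 at -0.34 (-0.38), UVRAG at 0.46 (0.39), TFE3 at -0.20 and FUCA1 at -0.04 (-0.08). The sign of TFE3 did not turn with the GC correction.

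With single libraries left out, the counts ranged from 0 to 0 for CHL1 CDK4/6i at 72 hours, 4 to 18 at 6 days and 32 to 34 under PRMT5i. For A375 they ranged from 6 to 9, 26 to 36 and 0 to 0, respectively. They ranged from 0 to 1 and 0 to 23 for the times in CHL1 and A375, 29 to 34 and 1 to 3 for PRMT5i against CDK4/6i, 0 to 1, 5 to 23 and 25 to 30 for the line differences under CDK4/6i at 72 hours and 6 days and under PRMT5i, and 22 to 23 for the untreated lines. Of 1661 values of named genes under the alternatives, 1445 kept direction and side of the threshold, 191 kept direction alone and 25 turned sign.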

Other observations

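Among the other pathway genes, 28 coded for membrane and sorting proteins of the lysosome, and their median changes were smaller than those of the hydrolases, a difference that was not tested. Under CDK4/6i 1 was higher and 1 lower at 72 hours and 4 were higher and 1 lower at 6 days in CHL1, and 5 were higher at 72 hours and 12 higher and 4 lower at 6 days in A375. The medians were 0.10, 0.15, 0.27 and 0.35, against 0.39, 0.55, 0.50 and 0.82 for the 34 other hydrolases. The 15 other MiT factors and mTORC1 regulators had medians of 0.15, 0.26, 0.29 and 0.42, with 0, 4, 3 and 7 higher and 0, 1, 1 and 1 lower. As a background to these counts, 4.98% and 16.6% of all genes were called in CHL1 at 72 hours and 6 days. In A375 the shares were 13.3% and 43.1%.

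Untreated CHL1 and A375 also differed in the other membrane and sorting genes, of which 18 of 28 were higher in CHL1 and 4 in A375, with a median difference of 0.85, a share of 78.6% against 58.9% of all genes. Of the 34 other hydrolases 9 were higher in CHL1 and 11 in A375, a share of 58.8%, near that over all genes.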
